A study of Arabidopsis thaliana with 2 samples.

Results

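The maternally biased genes AT1G51000, AT1G51300, AT1G60970 and AT1G61090 lie on the lower arm of chromosome 1 and form 2 pairs of near neighbours. AT1G51000 and AT1G51300 are separated by 104.815 kb, and AT1G60970 and AT1G61090 by 50.885 kb. All 4 belong to the maternally expressed candidates that the study had selected from the same libraries, so their maternal shares below are a description and were not tested. The genes comprised 20 of the 147349 SNP windows with at least 1 match, and 162 further windows lay between the genes of a pair. These intervening windows had no part in the choice of the genes.

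The Arabidopsis accessions Bur-0 and Col-0 were crossed in both directions, and whole seeds were collected 4 days after pollination (DAP) and pooled over many siliques. In the names of the crosses the mother comes first, so Bur-0×Col-0 seeds had Bur-0 mothers. Neither accession carried a mutation or received a treatment, and both groups share the growth conditions and the F1 generation. There was 1 mRNA library of whole seeds per cross, sequenced on 4 lanes with 36-nt reads, which leaves the spread between plants unknown. Per the labels, the lanes of a cross belong to 1 sample, and all intervals cover counting error alone, reads without molecular tags being no independent molecules.

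An Arabidopsis seed at this stage combines a diploid embryo, a triploid endosperm that receives 2 maternal genomes for 1 paternal genome, and a seed coat that is entirely maternal. In a maternally expressed imprinted gene, the endosperm transcribes the maternal alleles and keeps the paternal allele silent, often with the help of DNA methylation or Polycomb proteins. Seed coat RNA is maternal for every gene, and in whole seeds it cannot be told apart from imprinted expression. Likewise, a lower level can reflect fewer cells of a type or less RNA per cell. To limit the part of the seed coat, the study kept maternal candidates with higher array signals in endosperm than in seed coat. They also had to lack significant vegetative expression. By allele-specific PCR or sequencing of independently prepared seed RNA, the study found AT1G51000 and AT1G60970 mainly maternal in both crosses.

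Each pair joins a gene of annotated function to one annotated as unknown, so likeness within a pair cannot be judged from annotation. AT1G60970 was annotated in the study as a small chain of a clathrin adaptor complex, and its product is also known as a zeta subunit of the COPI coat. Such coat subunits help to shape transport vesicles and to select their cargo. AT1G51300 was annotated as an acyl-protein thioesterase, an enzyme class that removes fatty acyl groups from proteins. AT1G51000 and AT1G61090 were annotated as unknown proteins. In the gene order of the TAIR10.1 assembly, 34 genes lie between AT1G51000 and AT1G51300, of which 29 encode proteins. Among them are PLT2, a root stem cell transcription factor, HTA10, which encodes a histone H2A, and LPAT3, an acyltransferase of phospholipid synthesis. Between AT1G60970 and AT1G61090 lie 18 genes, 17 of them encoding proteins. They include GA20OX4, a gibberellin biosynthesis gene, VIP5, a subunit of the transcription elongation complex Paf1C, and several small cysteine-rich protein genes of the SCRL group. The SNP windows carry TAIR8 coordinates and were not assigned to these genes, nor to exons, introns or untranslated regions, since no annotation of that build was used here.

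The values are counts of deposited matches per 71-nt window, with the SNP at position 36. Every window was made in a Col-0 and a Bur-0 version, so each match names an allele. There were 8576779 matches from Bur-0×Col-0 and 6773239 from Col-0×Bur-0, of which 95.4% and 93.2% were maternal. Lane 1 of Col-0×Bur-0 stood apart from the other lanes of that cross. The variance of window counts between it and another lane was 7.12 to 8.37 times that of sampling, against 0.990 to 1.26 times for all other pairs of lanes of one cross.

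The overlap of windows bears on every comparison of the accessions. Where SNPs lie within 35 nt of each other, a read can lie wholly inside the windows of both. Of the Bur-0 matches, 2060210 with Bur-0 mothers (25.2%) and 77805 with Col-0 mothers (16.8%) lay wholly inside a further matched window. Of the Col-0 matches, 0 of 394625 with Bur-0 mothers and 0 of 6309591 with Col-0 mothers did so. The Col-0 windows of neighbouring SNPs carry the same sequence, and matches had to be unique in the set of windows. In clustered windows, Col-0 matches were found only at starts outside the neighbouring window, while Bur-0 matches were also found inside it. Of the 20 windows of the 4 genes, 10 had another matched window within 35 nt.

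AT1G51000 was covered by a single window, on chromosome 1 of TAIR8 from 18913665 to 18913735, and the nearest matched windows on either side were 4758 and 3775 nt away. It had 782 maternal matches with Bur-0 mothers and 595 with Col-0 mothers, and 0 paternal matches in both crosses. A count of 0 would allow paternal shares of up to 0.384% and 0.504%, the share that 3 matches would make. The matches did not come from a few positions. They began at 68 combinations of start and strand with Bur-0 mothers and at 61 with Col-0 mothers. The most frequent start was position 34 of the window in both crosses, with 83 and 60 matches. Complete absence of paternal matches was not rare among windows of the series, as it was found for 5847 of the 34959 windows of 20 or more matches per cross (16.7%). Among the 1363 windows of 500 or more matches per cross, the range in which AT1G51000 lies, 67 had no paternal match (4.92%).

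AT1G51300 was covered by 7 windows between 19018551 and 19019827. With Bur-0 mothers all 127 matches were maternal, and with Col-0 mothers all 117 were. The floors of 3 matches correspond to paternal shares of 2.36% and 2.56%, so that this gene is described less precisely than its neighbour. With Bur-0 mothers, only 91 of the 127 matches had starts outside every other matched window, where a Col-0 match could be found. The bound of 2.36% is therefore too narrow. Most matches came from 3 windows. The window starting at 19018662 had 42 maternal matches with Bur-0 mothers and 36 with Col-0 mothers, that at 19019463 had 34 and 52, and that at 19019745 had 39 and 21. The windows at 19018551, 19018580, 19019619 and 19019757 had between 0 and 8 matches in a cross. With Bur-0 mothers, 8 reads were counted in more than 1 window, all of them with the Bur-0 allele, and with Col-0 mothers there were 0 such reads.

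AT1G60970 had the lowest coverage, with 63 matches with Bur-0 mothers and 27 with Col-0 mothers in 4 windows between 22451527 and 22452326. Of these, 5 with Bur-0 mothers and 1 with Col-0 mothers were paternal. The maternal share was 92.1% (95% Wilson interval 82.7% to 96.6%) and 96.3% (81.7% to 99.3%) in the respective crosses, and these intervals overlap. The paternal matches came from the 2 windows with the highest coverage. That starting at 22452084 had 19 maternal and 2 paternal matches with Bur-0 mothers and 8 and 0 with Col-0 mothers. That starting at 22452256 had 29 and 3 with Bur-0 mothers and 16 and 1 with Col-0 mothers. The windows at 22451527 and 22451532, only 5 nt apart, had 2 and 8 matches with Bur-0 mothers and 0 and 2 with Col-0 mothers, all of them maternal. The 5 paternal Col-0 matches came from 3 of 4 lanes, and each from a start and strand of its own.

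AT1G61090 was covered by 8 windows between 22503212 and 22504031. With Col-0 mothers all 419 matches were maternal, so that a paternal share of up to 0.716% remained possible. With Bur-0 mothers, 949 matches were maternal and 98 paternal, a maternal share of 90.6% (95% Wilson interval 88.7% to 92.3%), and the interval does not reach the share in the reciprocal cross. The windows did not share this value. In 5 of the 8 windows, 867 matches were maternal and 0 paternal with Bur-0 mothers, and the window at 22503672 had 0 matches of either allele. Of the 867, 70 at 22503218, 78 at 22503431 and 52 at 22503443 lay wholly inside a neighbouring window. No Col-0 match was found at such starts, so the absence of paternal matches there carries no information. In the first and last window of the gene, 82 matches were maternal and 98 paternal, a maternal share of 45.6% (38.4% to 52.8%).

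With Col-0 mothers, these 6 windows without a paternal match held 272 Col-0 matches, at least 3 in each. The deepest, starting at 22503347 and with no other matched SNP within 35 nt, had 256 maternal and 0 paternal matches with Bur-0 mothers, so that a paternal share of up to 1.17% remained possible. With Col-0 mothers, 132 matches were maternal and 0 paternal. Its matches began at 45 combinations of start and strand with Bur-0 mothers and at 37 with Col-0 mothers. Position 26 was the most frequent start in both crosses.

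**Figure D1:**
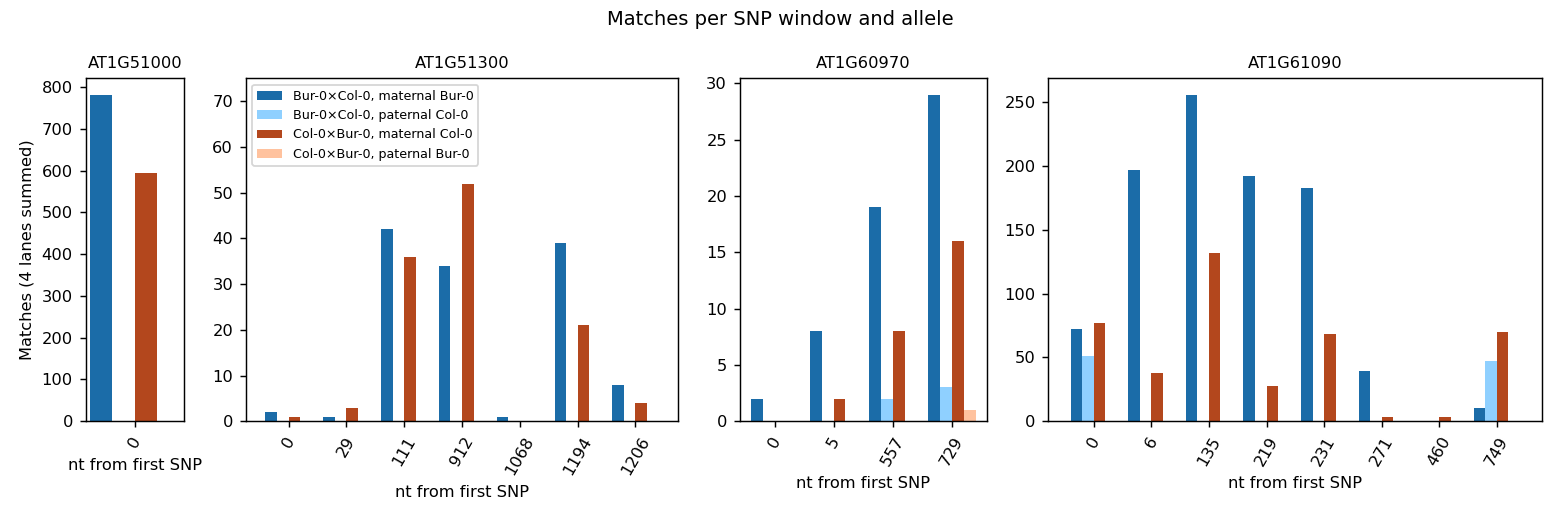
Matches per SNP window for each gene (bars, 4 lanes summed), with the distance in nt from the first SNP of the gene on the x axis and a scale of its own for each gene. Paternal bars are seen only in AT1G60970 (2 and 3 matches with Bur-0 mothers and 1 with Col-0 mothers) and in the first and last window of AT1G61090 (51 and 47 with Bur-0 mothers).

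The first window of AT1G61090 has a neighbour 6 nt away. With Bur-0 mothers it had 72 maternal Bur-0 and 51 paternal Col-0 matches, and with Col-0 mothers it had 77 maternal Col-0 and 0 paternal Bur-0 matches. All Col-0 matches of both crosses began at positions 1 to 6 of the window, the starts that the neighbouring window at 22503218 does not contain. Of the 72 Bur-0 matches, 55 began at later positions, where no Col-0 match was found. At positions 1 to 6 the count was 17 Bur-0 to 51 Col-0 matches, with a 95% Wilson interval of 16.2% to 36.4% for the maternal share. Position 5 was the most frequent start of the Col-0 matches, with 28 of 51 with Bur-0 mothers and 46 of 77 with Col-0 mothers.

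The last window, starting at 22503961, has no matched neighbour within 35 nt. It had 10 maternal Bur-0 and 47 paternal Col-0 matches with Bur-0 mothers (maternal share 17.5%, 95% Wilson interval 9.82% to 29.4%). With Col-0 mothers it had 70 maternal Col-0 and 0 paternal Bur-0 matches. Over all starts, Col-0 matches thus outnumbered Bur-0 matches in both directions of the cross. Of its Col-0 matches, 24 of 47 and 39 of 70 began at position 2. The Bur-0 matches all began at position 19 or later, whereas Col-0 matches were found from position 1 onwards in both crosses. From position 19 on, there were 10 Bur-0 matches with Bur-0 mothers, against 4 Col-0 matches at position 19 and 1 at position 22. With Col-0 mothers, 4 Col-0 matches began at position 19 and 1 at position 20. Over these later starts, Col-0 matches thus did not outnumber Bur-0 matches with Bur-0 mothers. Paternal Col-0 matches of AT1G61090 were present in every lane of Bur-0×Col-0, with 33, 22, 24 and 19 matches. When repeats of a start and strand within a lane were dropped, 39 of the 98 remained. Of the 949 maternal matches of the gene in this cross 404 then remained, so the maternal share was 91.2%.

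**Figure D2:**
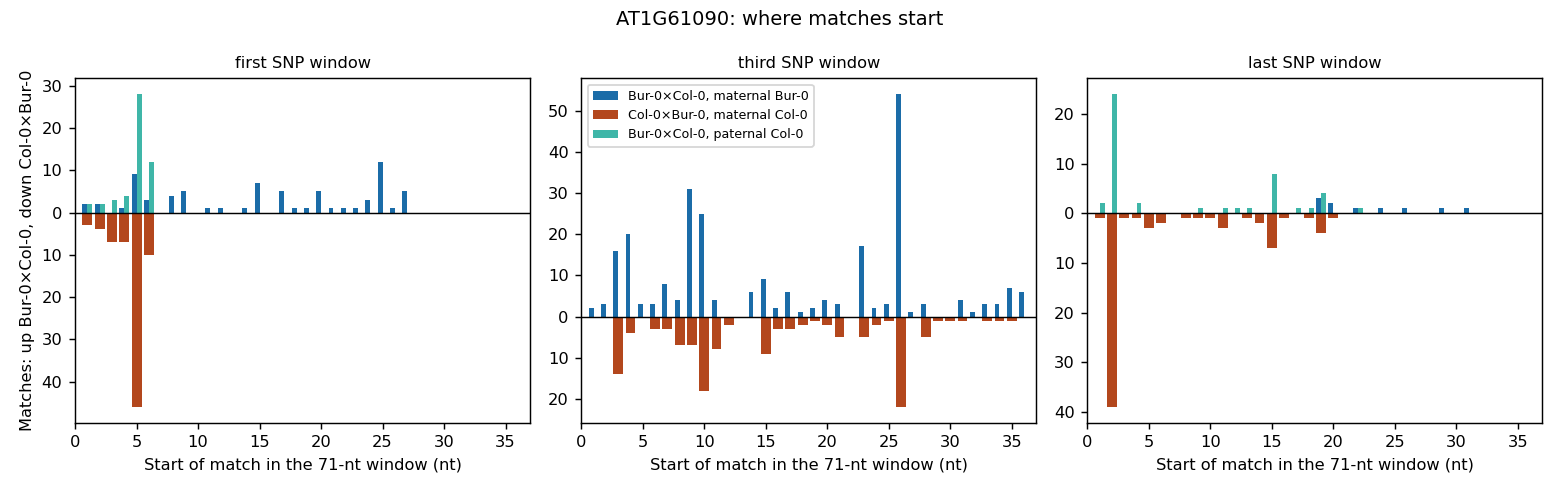
Number of matches by start position in the first and last SNP window of AT1G61090 and in that at 22503347, with Bur-0×Col-0 plotted upwards and Col-0×Bur-0 downwards. Col-0 matches of the first window are confined to positions 1 to 6 in both crosses, the window at 22503347 has only maternal matches (256 and 132), and the last window has 47 paternal Col-0 against 10 maternal Bur-0 matches.

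The level of each gene was compared between the crosses as matches of both alleles per 1000000 matches of the library, called MPM here. AT1G51000 had 91.2 MPM with Bur-0 mothers and 87.8 with Col-0 mothers, a ratio of 1.04 (exact 95% interval 0.932 to 1.16). AT1G51300 had 14.8 and 17.3, a ratio of 0.857 (0.662 to 1.11). For neither gene of the first pair did the interval exclude a ratio of 1 with this scaling. With unscaled counts, or scaled to the median window, the ratio of AT1G51000 was 1.31 (1.18 to 1.46) and its interval excluded 1. AT1G60970 had 7.35 and 3.99 MPM, a ratio of 1.84 (1.16 to 3.01), and AT1G61090 had 122 and 61.9, a ratio of 1.97 (1.76 to 2.22). Both genes of the second pair therefore had more matches with Bur-0 as the mother, by more than counting error. For AT1G60970 the interval included 1 without lane 2 of both crosses (1.54, 0.914 to 2.67) and when repeats of a start and strand within a lane were dropped (1.62, 0.980 to 2.73). For AT1G51300 it excluded 1 without lane 3 (0.733, 0.543 to 0.988). These intervals compare 1 library with 1 library and have no replicate check.

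The same ratio had a median of 0.790 over the 34959 windows that reached 20 matches in each cross, and quartiles of 0.580 and 1.11. A ratio at least as high as that of AT1G60970 was found for 8.76% of these windows and one as high as that of AT1G61090 for 7.75%. The median was 0.710 for windows without and 1.13 for windows with another matched SNP within 35 nt. The total used for scaling holds both kinds of window. On starts outside every other matched window, an alternative chosen after seeing the data, the ratio of AT1G51000 was 1.35, with a lower bound of 1.21. This again excluded 1, but the counts of the gene were unchanged and only the library totals differed. The ratios of AT1G51300, AT1G60970 and AT1G61090 were then 0.799, 2.13 and 1.94. With unscaled counts, or scaled to the median window, the ratio of AT1G51300 was 1.09, on the other side of 1, as was that of AT1G51000 without lane 2 (0.995).

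The windows of AT1G61090 differed widely in this ratio. It was 4.09 (2.88 to 5.96) for the window at 22503218 and 5.42 (3.63 to 8.36) for that at 22503431, which both have a neighbour within 12 nt. The other windows with so close a neighbour, at 22503212 and 22503443, had ratios of 1.26 (0.941 to 1.70) and 2.13, so the ratios of clustered windows differed too. For the window at 22503347, without such a neighbour, it was 1.53 (1.24 to 1.90), and for that at 22503483, 40 nt from its neighbour, 10.3 (3.26 to 51.9) with 39 and 3 matches. The window at 22503961 had a ratio of 0.643 (0.445 to 0.925), in the opposite direction. With Bur-0 mothers, 59 reads of the gene were counted in more than 1 window, all with the Bur-0 allele. The intervals of the AT1G60970 windows included 1, except that at 22451527, for which no ratio could be given. Of the AT1G51300 windows, that at 19019463 had a ratio of 0.516 (0.325 to 0.811), while the intervals of the others included 1 or could not be given.

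**Figure D3:**
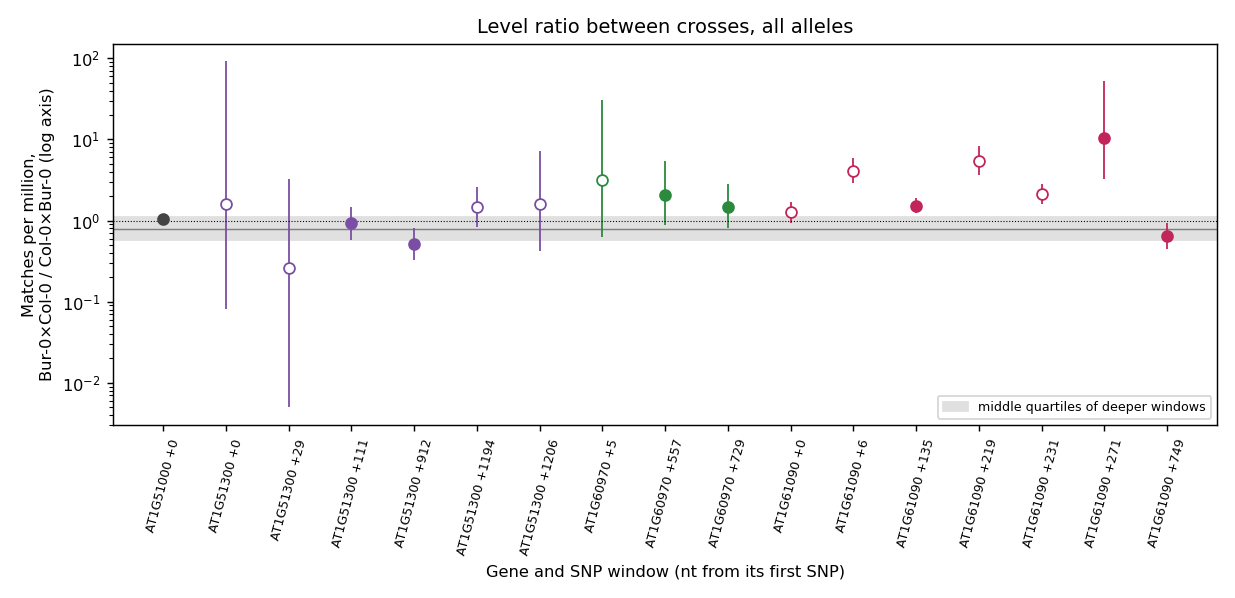
Ratio of MPM (matches per 1000000 matches) between the crosses (log axis) for each window with matches in both, with exact 95% intervals for counting error. Filled points have no other matched SNP within 35 nt, open points have one, and the grey band marks the quartiles of all deeper windows (0.580 to 1.11), with their median (0.790) as a line and a ratio of 1 dotted. The points of AT1G61090 range from 0.643 to 10.3.

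By lane, AT1G51000 had 96.5, 90.8, 85.2 and 92.9 MPM with Bur-0 mothers. With Col-0 mothers it had 112 in lane 1 and 77.2, 78.5 and 81.8 in lanes 2 to 4. Lane 1 was thus above, and the other lanes below, all lanes of the reciprocal cross. AT1G61090 had 115, 116, 125 and 135 MPM in the lanes of Bur-0×Col-0 and 81.4, 53.7, 53.3 and 57.9 in those of Col-0×Bur-0. The lanes of the crosses did not overlap for this gene, and lane 1 was again the highest of its cross. AT1G60970 had between 5.19 and 8.98 MPM with Bur-0 mothers and between 2.19 and 5.46 with Col-0 mothers, with overlap. AT1G51300 had between 11.7 and 16.4 with Bur-0 mothers and between 11.5 and 20.8 with Col-0 mothers. Without lane 1 of both crosses, the ratio of AT1G61090 was 2.28 and that of AT1G51000 was 1.13. The part of that lane in the levels was not tested further.

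**Figure D4:**
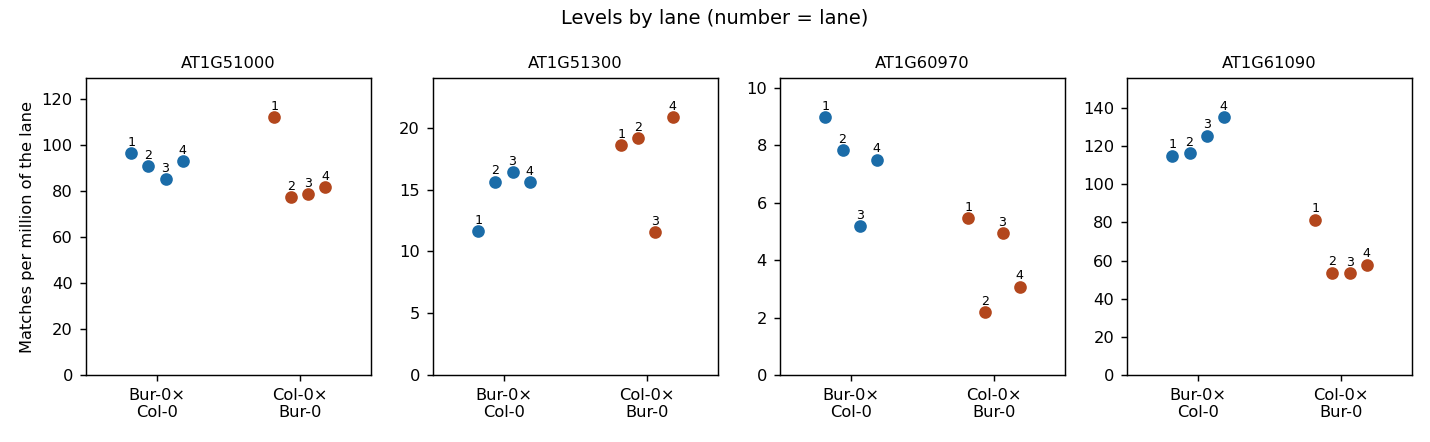
MPM (matches per 1000000 matches of the lane) for each gene (points, labelled by lane number) in the lanes of both crosses, with axes starting at 0. For AT1G61090 the lanes of Bur-0×Col-0 (115 to 135) lie above those of Col-0×Bur-0 (53.3 to 81.4), and lane 1 of Col-0×Bur-0 is set off for AT1G51000 (112) and AT1G61090 (81.4).

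The windows between the genes describe how often a maternal bias was called in the stretch that separates the genes of a pair. Each matched window of the series was tested against 2m:1p (2 maternal matches for each paternal one) with a one-sided exact binomial test in each cross, the larger p-value was squared, and a q of 0.05 was the limit for a call. This called 32.1% of all matched windows as maternally biased and 0.0516% as paternally biased. Of the 78 windows between AT1G51000 and AT1G51300, 10 were called maternally biased (12.8%), and of the 84 between AT1G60970 and AT1G61090, 40 were (47.6%). No intervening window was called paternally biased. The calls depend on depth, and 46 of the 78 and 34 of the 84 windows had fewer than 10 matches over both crosses. Among windows of 20 or more matches per cross, where 91.9% of all windows of the series were called maternally and 0.0687% paternally biased, 6 of 9 were called in the first interval and 27 of 29 in the second. The share of called windows in the second interval was thus near the background of windows of this depth. The first interval has too few deep windows for a comparison. With a background of 91.9%, calls between the genes cannot decide whether the bias of a pair extends over the stretch between them. The test sets 1 library per cross against a fixed ratio, without a replicate check.

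Of the matches between AT1G51000 and AT1G51300, 2671 were maternal and 245 paternal with Bur-0 mothers and 1803 and 280 with Col-0 mothers, maternal shares of 91.6% and 86.6%. In lane 1 of Col-0×Bur-0, the lane that stood apart, the share was 78.8% (74.6% to 82.4%), against 88.0% to 88.9% in the other lanes of that cross. The 3 windows at 18926936, 18930766 and 19005347, described below, held 164 of the 245 paternal matches with Bur-0 mothers. With Col-0 mothers they held 194 of the 280. The most matches were found in the window starting at 18989749, 28.7 kb before AT1G51300, with 541 maternal and 18 paternal matches with Bur-0 mothers and 484 and 15 with Col-0 mothers (shares of 96.8% and 97.0%). The overlapping windows at 18957561 and 18957584 followed, with 447 and 487 maternal matches with Bur-0 mothers and 254 and 228 with Col-0 mothers. Together they had a single paternal match, a Col-0 match in the former. They lie 23 nt apart, so 1 Bur-0 read can count in both, while Col-0 matches are found only at starts outside the neighbour. The window at 18958106, without such a neighbour, had 241 maternal matches with Bur-0 mothers, 250 with Col-0 mothers and 0 paternal ones. Matches almost without a paternal share were thus not restricted to the candidate genes of this stretch.

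The largest paternal shares of the first interval mostly differed between the crosses. The window at 18930766 had 226 maternal Bur-0 and 161 paternal Col-0 matches with Bur-0 mothers, a paternal share of 41.6%, but 203 maternal Col-0 and 5 paternal Bur-0 matches with Col-0 mothers, a share of 2.40%. The window at 18947598 had 19 maternal and 7 paternal matches with Bur-0 mothers and 8 and 1 with Col-0 mothers, few enough that the intervals of its maternal shares overlap (53.9% to 86.3% and 56.5% to 98.0%). Among the named windows of this interval, 3 had more Bur-0 than Col-0 matches in both crosses. That at 18925760 had 14 Bur-0 and 0 Col-0 matches with a Bur-0 mother and 0 Col-0 and 23 Bur-0 matches with a Col-0 mother. That at 18926936 had 148 Bur-0 and 1 Col-0 matches in the former cross and 169 Bur-0 and 4 Col-0 matches in the latter. That at 19005347, 13.1 kb before AT1G51300, had 30 Bur-0 and 2 Col-0 matches and 20 Bur-0 and 0 Col-0 matches, respectively. Such windows give no parental share that is independent of the accession.

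Between AT1G60970 and AT1G61090, 1941 matches were maternal and 138 paternal with Bur-0 mothers and 1899 and 109 with Col-0 mothers, shares of 93.4% and 94.6%. The most matches were found at 22478918, with 150 maternal and 3 paternal matches with Bur-0 mothers and 137 and 5 with Col-0 mothers. The window at 22479544 had 108 and 2 with Bur-0 mothers and 99 and 4 with Col-0 mothers, so that both were maternal to at least 96.1% in each cross.

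The paternal share of the second interval was largest in 2 windows 10.6 and 10.8 kb from AT1G60970. That starting at 22462956 had 54 maternal and 36 paternal matches with Bur-0 mothers (maternal share 60.0%, 95% Wilson interval 49.7% to 69.5%). With Col-0 mothers it had 62 and 22 (73.8%, 63.5% to 82.0%). That starting at 22463097 had 58 and 59 with Bur-0 mothers (49.6%, 40.7% to 58.5%) and 78 and 25 with Col-0 mothers (75.7%, 66.6% to 83.0%). These were the only windows of 20 or more matches per cross between AT1G60970 and AT1G61090 that were not called maternally biased, and they held 95 of the 138 paternal matches of the interval with Bur-0 mothers and 47 of the 109 with Col-0 mothers. Of the windows with at least 20 matches in the cross, the next largest paternal shares were those of 22488739 with Bur-0 mothers (38 maternal and 2 paternal matches) and of 22488859 with Col-0 mothers (30 and 4, a paternal share of 11.8%).

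**Figure D5:**
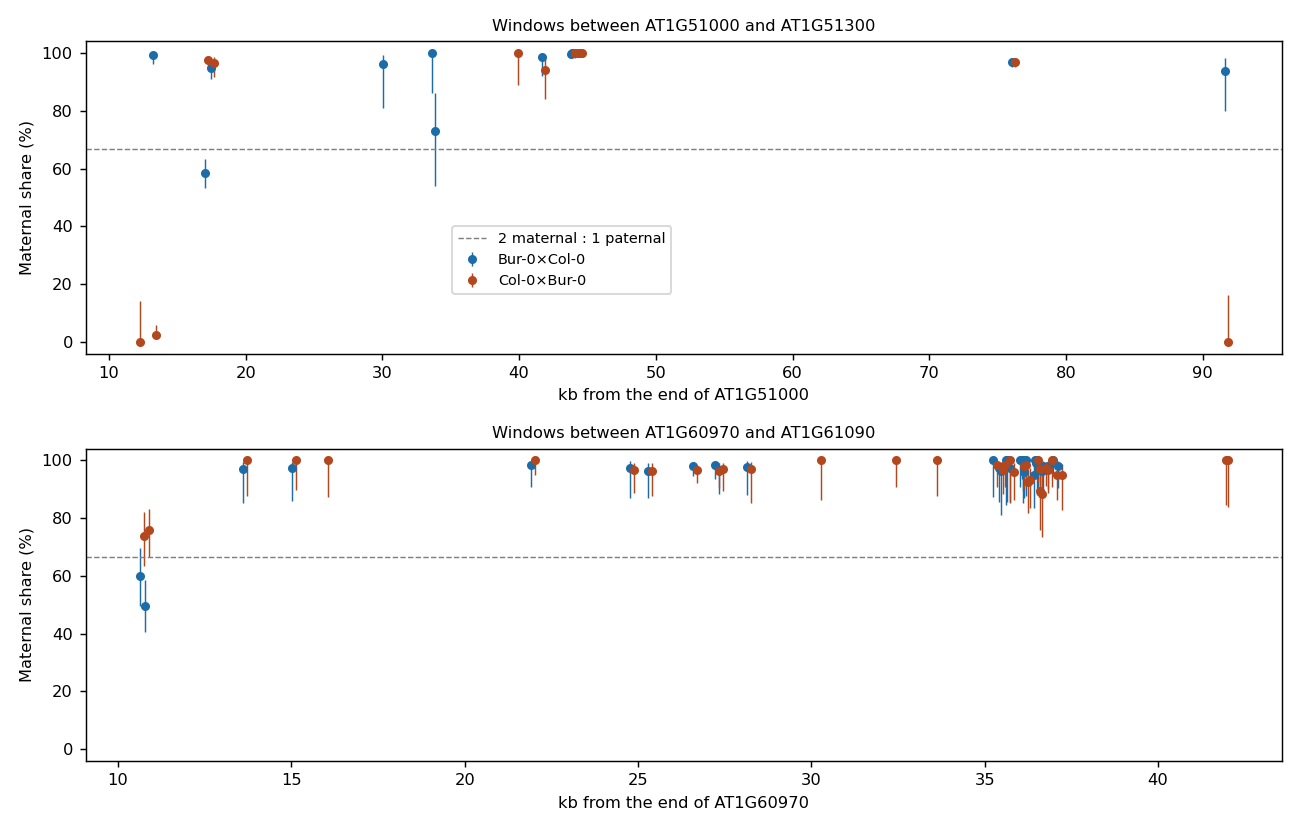
Maternal share with 95% Wilson intervals for windows with at least 20 matches in the cross, plotted against the distance in kb from the end of the first gene of each pair, with 2 maternal to 1 paternal match as a dashed line. Most points lie near the top. In the upper panel windows at 0% to 2.31% with Col-0 mothers match the Bur-0 base in both crosses, and in the lower panel the windows at 10.6 and 10.8 kb lie at 49.6% to 75.7%.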

How the data were processed

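Reads of whole F1 seeds at 4 DAP were matched by the authors with vmatch (version not given in the sources used here) to 71-nt windows of TAIR8 around Bur-0 SNPs, made with either allele. Whole 36-nt reads were required, with up to 2 mismatches, in both orientations and unique in the set of windows. The deposited files hold 1 line per match (window, allele, start, orientation, read), in 8 files, without sequence, normalization or the number of mismatches. Lines were counted here per window, allele, cross and lane, so all counts are counts of deposited matches. Per lane there were 1733892 to 2313110 matches in Bur-0×Col-0 and 1295748 to 1830948 in Col-0×Bur-0.

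The genes were the windows lying in the TAIR8 intervals given above, and all 4 loci were found in the TAIR10.1 gene table, used for names and gene order only. The genes, intervals and tests were chosen with earlier results of these data known. Named intervening windows were the 3 with the most matches of each interval, and the 3 with the largest paternal share in each cross among those with at least 20 matches in it. The window at 18958106 was named in addition. Related proteins, which were also to be named, were not analysed here. Shares have 95% Wilson intervals and level ratios exact conditional binomial intervals. For the q-value, p was multiplied by 147349 (all matched windows) and divided by its rank. Alternatives changed the counting of repeated starts, the windows, lanes and starts used, the scaling, the null and the joint p. Computations used SciPy 1.17.1, pandas 2.3.3 and NumPy 2.4.6 under Python 3.11.15, and plots Matplotlib 3.10.9.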

Additional observations from a re-analysis of the deposited data

Results flagged for a closer look

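In the genes 10 windows, and between the genes of a pair 38, had 20 or more matches per cross. In 4 of these windows more than 50% of the matches were maternal in one direction of the cross and fewer in the other. This was found for 4.65% of all windows of that depth in the series. The difference between the crosses was not tested, as each has 1 library. In the last window of AT1G61090, starting at 22503961, the maternal share over all starts was 17.5% with Bur-0 mothers and 100% with Col-0 mothers. Between AT1G51000 and AT1G51300, it was 99.3% and 2.31% at 18926936 and 93.8% and 0% at 19005347 in the respective crosses. Between AT1G60970 and AT1G61090, the window at 22463097 had shares of 49.6% and 75.7%, the former with 58 maternal to 59 paternal matches and an interval of 40.7% to 58.5%.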

How the results depend on the processing

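Of 131 values recomputed under an alternative, 115 stayed within the interval of the reported value or within 1.5 times the reported count. Among these 115 are the maternal shares of AT1G51000, of AT1G51300 and, in Col-0×Bur-0, of AT1G61090. With 0 paternal matches these shares could not leave 100%, so they say nothing of the alternatives. Of the ratios whose interval excluded 1, 0 moved to its other side. Of those whose interval included 1, AT1G51300 had 1.09 unscaled or with scaling to the median window and a value just over 1 when repeats of a start and strand were dropped, and AT1G51000 had 0.995 without lane 2. With a null of 1 maternal to 1 paternal match, 19 of 78 in place of 10 windows were called between AT1G51000 and AT1G51300, 44 of 84 in place of 40 between AT1G60970 and AT1G61090, and 59219 in place of 47300 of all 147349. The 98 paternal Col-0 matches of AT1G61090 were 39 when repeats of a start and strand within a lane were dropped and 47 without the window that holds most of them. Its 949 maternal matches in that cross were then 404 and 877. The maternal share of AT1G61090 in Bur-0×Col-0 was 86.6% on isolated windows (those more than 35 nt from any further matched SNP), 87.6% without its deepest window and 87.6% on starts outside every other matched window, the last an alternative chosen after seeing the data. That of AT1G60970 in Col-0×Bur-0, with 1 paternal match, was 100% without its deepest window and 100% without lane 4. The level ratio of AT1G51000 was 1.35 on isolated windows and 1.35 on starts outside every other matched window, both chosen after seeing the data. It was 1.31 with unscaled counts and 1.31 with scaling to the median window, and its interval excluded 1 in all 4 of these. They are not separate checks. The gene kept its 782 and 595 matches in each, so only the scaling changed, and the unscaled and median-scaled ratios were the same for every gene. The level ratio of AT1G61090 was 1.73 on isolated windows, 2.50 unscaled, 2.50 with scaling to the median window and 2.28 without lane 1. Leaving out 1 lane of both crosses gave 8 called windows in the first interval each time and between 32 and 36 in the second, where 40 were called. AT1G51000 has 1 window and gives no value without it. At AT1G60970, 27 matches in Col-0×Bur-0 limit the precision. No paired analysis was possible because each cross has 1 library.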
